A study of Homo sapiens with 36 samples.

Results

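The mevalonate pathway genes followed here encode the enzymes that carry acetyl-CoA to squalene epoxide. They are ACAT2, HMGCS1, MVK, PMVK, MVD, IDI1, FDPS, FDFT1 and SQLE, taken by symbol from the deposited RNA count table. All 9 were among its 25344 gene symbols, and all 9 were among the 9847 genes with enough counts to be tested.

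RNA was measured in HMC3, an established human microglial cell line, by full-length cDNA sequencing of poly(A) RNA. PFOS is perfluorooctane sulfonate, a persistent perfluorinated surfactant. Exposure lasted 24 h at 0 (vehicle), 25 or 50 µM PFOS, after which cells were either collected or kept for another 24 h in medium free of it, which is called recovery here. The resulting 6 groups held 3 libraries each, 18 in all, and every group was grown in the same line and the same serum-containing medium.

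In this pathway acetyl-CoA is built into HMG-CoA, reduced to mevalonate, phosphorylated and decarboxylated to the isoprene unit, and then joined into farnesyl diphosphate and squalene. Farnesyl diphosphate also feeds prenylated proteins, dolichol and ubiquinone, so the route to sterols is only one of its uses. The genes are classical targets of the transcription factor SREBP2, which is held inactive when membrane cholesterol is plentiful and which usually acts beside the CCAAT-binding factor NF-Y. In brain, neurons take much of their cholesterol from glia.

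Total counts per library ranged from 582233 to 4346627, and the 9 genes together held 2026 to 19341 counts in a library. The 3 libraries of 50 µM PFOS after recovery stood apart from the other 15. On the first principal component, which held 40.5% of the variance, they lay at 14.86, 105.3 and 52.9, against -29.43 to 3.378 in the others. Ribosomal protein genes took 2.94, 7.58 and 5.03% of their counts, against 1.21 to 2.43% in the others. Of 12 microglial markers, 8 had a count somewhere, and AIF1, CX3CR1, C1QA and C1QB had none in any library. Only CD68 was counted in all 18 libraries. Over all libraries together TMEM119, ITGAM and SPI1 had 1 count each, PTPRC 2, P2RY12 8, TREM2 27 and CSF1R 28. The summed level of the 12 markers is given in counts scaled to library size (CPM), and most of it was CD68. At 24 h it ranged from 56.2 to 79.5 CPM at 50 µM and from 22.1 to 23.1 CPM with vehicle. After recovery it ranged from 52.8 to 65.1 CPM at 50 µM and from 17.4 to 29.1 CPM with vehicle. Of 10 mesenchymal markers, 9 had a count, among them FN1 at 2680 to 17800 CPM, with COL3A1 at 0. Over all libraries together FN1 had 417500 counts and COL1A1, the next of this list, 46066, so the summed level of the list was mostly FN1. At 24 h the sum was 14500 to 18500 CPM at 50 µM and 14300 to 16700 CPM with vehicle. After recovery it was 3790 to 12500 CPM at 50 µM and 12900 to 17700 CPM with vehicle. The part of these differences in the results below was not tested. In bulk RNA, fewer cells of a kind and less RNA per cell cannot be told apart.

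The promoters are shown as a description, and a link between their letters and the changes in level was not tested. RefSeq windows on GRCh38.p14 were matched for 6 of the 9 genes (HMGCS1, MVK, PMVK, MVD, IDI1 and FDPS), and the 250 bases before a transcript start are printed 5′ to 3′ on the gene's strand, with CCAAT or its reverse complement ATTGG in capitals. The windows are chr5:43313413-43313662 on the minus strand for HMGCS1, chr12:109573544-109573793 on the plus strand for MVK, chr16:88663092-88663341 on the minus strand for MVD, chr1:155308616-155308865 on the plus strand for FDPS and chr1:154936720-154936969 on the minus strand for PMVK.
HMGCS1: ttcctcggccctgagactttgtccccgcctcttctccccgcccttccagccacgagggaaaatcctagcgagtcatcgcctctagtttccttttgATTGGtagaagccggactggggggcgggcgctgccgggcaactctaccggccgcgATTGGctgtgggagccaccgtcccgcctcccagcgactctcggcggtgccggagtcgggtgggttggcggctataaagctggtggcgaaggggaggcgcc
MVK: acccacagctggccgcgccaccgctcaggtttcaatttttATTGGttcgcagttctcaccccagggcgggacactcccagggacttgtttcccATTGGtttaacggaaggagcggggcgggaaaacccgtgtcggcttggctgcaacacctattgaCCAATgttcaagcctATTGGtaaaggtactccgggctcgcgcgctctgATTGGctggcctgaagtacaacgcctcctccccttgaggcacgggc
MVD: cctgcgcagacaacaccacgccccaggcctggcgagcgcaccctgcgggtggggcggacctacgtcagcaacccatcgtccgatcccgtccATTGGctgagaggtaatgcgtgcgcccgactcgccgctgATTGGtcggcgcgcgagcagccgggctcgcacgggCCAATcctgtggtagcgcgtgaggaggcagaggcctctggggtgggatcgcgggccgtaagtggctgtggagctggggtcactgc
FDPS: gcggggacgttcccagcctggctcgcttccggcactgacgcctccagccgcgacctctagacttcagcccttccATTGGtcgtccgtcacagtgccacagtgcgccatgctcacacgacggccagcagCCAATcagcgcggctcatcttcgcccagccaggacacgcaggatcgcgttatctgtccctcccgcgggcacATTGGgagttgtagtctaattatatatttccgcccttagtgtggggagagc
PMVK: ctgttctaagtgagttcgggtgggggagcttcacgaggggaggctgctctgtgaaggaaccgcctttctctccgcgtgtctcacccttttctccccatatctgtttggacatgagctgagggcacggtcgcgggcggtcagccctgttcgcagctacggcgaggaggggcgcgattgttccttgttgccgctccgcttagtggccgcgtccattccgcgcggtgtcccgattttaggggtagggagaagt

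The CCAAT pentamer, read on both strands, occurred 2 times before this HMGCS1 start, 5 times in the MVK window, 3 times in the MVD window and 3 times in the FDPS window. It did not occur in the PMVK window, nor before a second HMGCS1 start, whose window is not printed. The 3 IDI1 windows, also not printed, held 0, 3 and 2 copies. Among 35116 RefSeq windows of the same 250 bases, 32.0% held at least 1 copy, 9.53% held 2 or more and 2.93% held 3 or more. The sterol element letters TCACNCCAC were in none of the 9 windows, and in 0.883% of all windows. The GC box GGGCGG was in every one of the 9, at 1 to 3 copies, and in 42.6% of all windows. These are letter matches, not measured binding. The MVK window shares 211 bases with that of MMAB, an enzyme of cobalamin metabolism transcribed from the other strand.

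After 24 h at 50 µM PFOS, 8 of the 9 genes fell and PMVK did not pass the test. The falls ran from HMGCS1, at 0.216 of its vehicle level, to FDFT1 and SQLE, each at 0.581. The median log2 fold change of the 9 was -1.25, against 0.01 over all genes tested. Over all genes, 9.59% were called lower, where called means a Benjamini-Hochberg adjusted p under 0.05 in edgeR's quasi-likelihood test. The libraries of the same 8 genes did not overlap with those of vehicle, a separation downwards that 21.1% of all genes showed. The share of each library's counts held by the 9 genes was 0.452, 0.458 and 0.474% with vehicle, 0.371, 0.354 and 0.364% at 25 µM and 0.209, 0.248 and 0.216% at 50 µM. It was lower at each higher dose, and no group's libraries overlapped with the next.

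**Figure D1:**
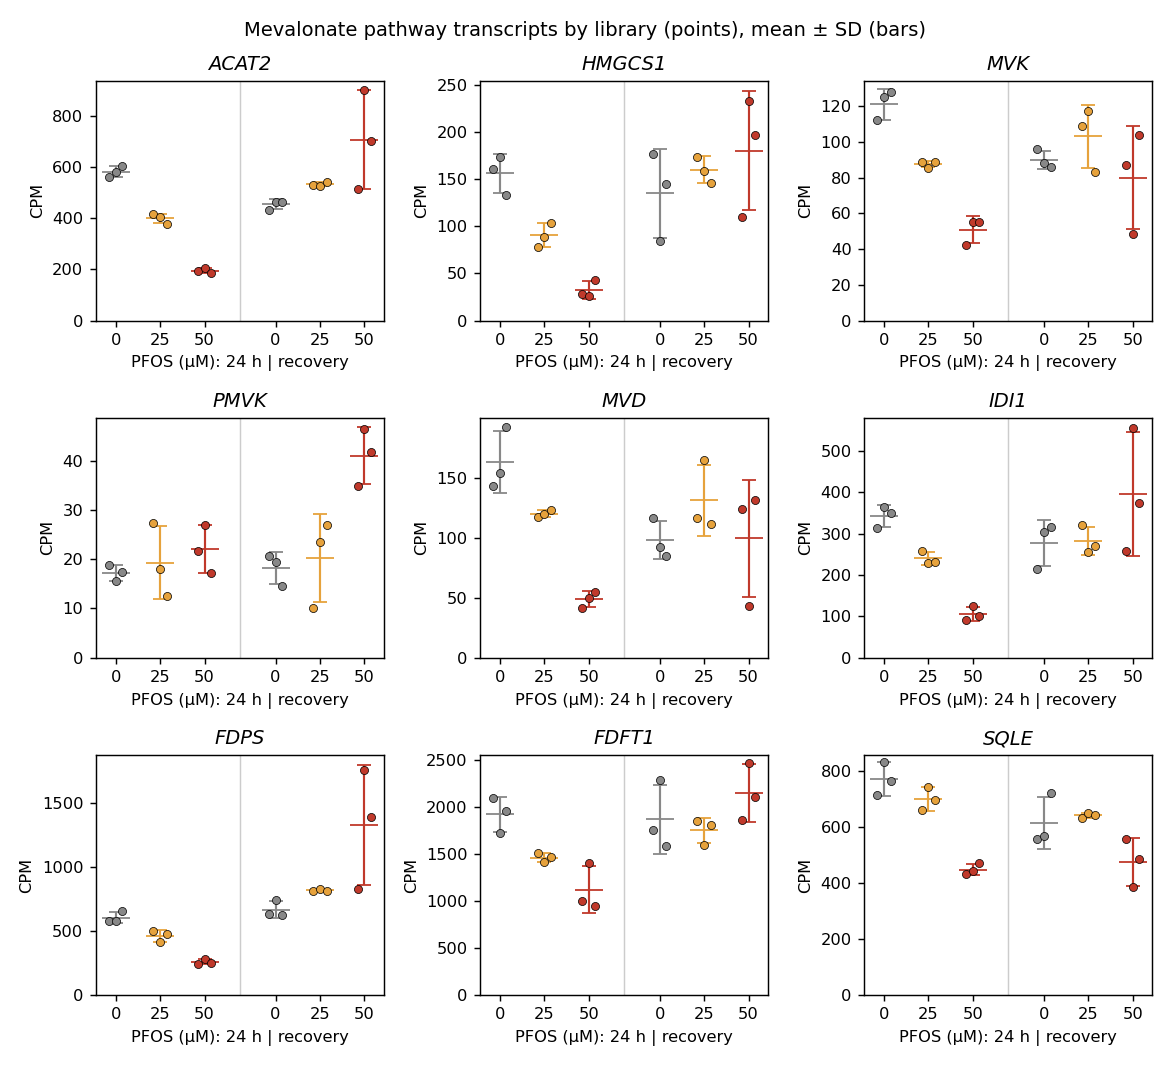
Level of each of the 9 transcripts in CPM (counts scaled to library size, vertical axis from 0) by PFOS dose in µM, at 24 h on the left of each panel and after recovery on the right. Points are the 3 libraries of a group and bars are mean ± SD; at 24 h the means of all genes but PMVK step down with dose, and the SD is widest at 50 µM after recovery for 6 genes, the others being PMVK, FDFT1 and SQLE.

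ACAT2, on chromosome 6, encodes the cytosolic thiolase that joins acetyl-CoA units in the first step. At 24 h it read 561, 580 and 603 CPM with vehicle, 416, 403 and 379 CPM at 25 µM and 194, 205 and 187 CPM at 50 µM PFOS. The 3 doses were fully separated. At 50 µM the log2 fold change over vehicle was -1.58 ± 0.16 (SE, edgeR, adjusted p = 2.8e-07). ACAT2 shares 615 bases with the neighbouring TCP1, a chaperonin subunit, and 237 with SOD2, so some reads may not be assignable. At 50 µM for 24 h the log2 fold change was -0.08 ± 0.14 for TCP1 and -0.16 ± 0.30 for SOD2. At 50 µM after recovery it was 0.08 ± 0.14 for TCP1 and 1.08 ± 0.27 for SOD2 (adjusted p = 0.00523, edgeR).

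HMGCS1, on chromosome 5, makes HMG-CoA in the cytosol and had the largest fall of the 9. Its 24 h levels were 161, 174 and 133 CPM with vehicle, 78.5, 89 and 104 CPM at 25 µM and 27.9, 26 and 43.3 CPM at 50 µM. Again no 2 doses overlapped, and the log2 fold change at 50 µM was -2.21 ± 0.29 (adjusted p = 1.03e-05, edgeR).

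Mevalonate is then phosphorylated by MVK and PMVK and decarboxylated by MVD. MVK, on chromosome 12, read 112, 125 and 128 CPM with vehicle, 88.6, 85.5 and 88.7 CPM at 25 µM and 42.4, 55.2 and 55.1 CPM at 50 µM. Its doses did not overlap, and the log2 fold change at 50 µM was -1.25 ± 0.21 (adjusted p = 0.00019, edgeR). MMAB, named here after its values were seen because it shares the MVK promoter window and 233 bases of the gene, averaged 34.3 ± 7.36 CPM at 50 µM and 54.3 ± 5.1 CPM with vehicle (SD, n = 3 each). Its log2 fold change was -0.62 ± 0.18 (adjusted p = 0.0184, edgeR).

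PMVK, on chromosome 1, was the exception. It read 18.8, 15.5 and 17.4 CPM with vehicle, 27.4, 18.1 and 12.6 CPM at 25 µM and 21.7, 27 and 17.3 CPM at 50 µM. The 3 doses overlapped, and the log2 fold change at 50 µM was 0.33 ± 0.30 (adjusted p = 0.479, edgeR). Its counts at 24 h were 21, 25 and 34 at 50 µM and 16, 43 and 59 with vehicle, and its SE was the widest of the 9 genes. MVD, on chromosome 16, read 143, 154 and 192 CPM with vehicle, 117, 120 and 123 CPM at 25 µM and 41.4, 49.7 and 55.1 CPM at 50 µM. Its doses were separated, with a log2 fold change of -1.74 ± 0.28 at 50 µM (adjusted p = 0.000131, edgeR).

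IDI1 and FDPS work on the isoprene units: IDI1 isomerises isopentenyl diphosphate, and FDPS condenses the units into farnesyl diphosphate. IDI1, on chromosome 10, read 314, 364 and 350 CPM with vehicle, 259, 230 and 232 CPM at 25 µM and 91.1, 125 and 101 CPM at 50 µM. FDPS, on chromosome 1, read 576, 579 and 654 CPM with vehicle, 499, 411 and 473 CPM at 25 µM and 243, 281 and 249 CPM at 50 µM. Both were separated at every dose. At 50 µM the log2 fold change was -1.70 ± 0.22 for IDI1 (adjusted p = 9.36e-06) and -1.23 ± 0.19 for FDPS (adjusted p = 8.13e-05, edgeR). IDI2, a paralog of IDI1, had 1 to 17 counts per library and was not tested.

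FDFT1 and SQLE, both on chromosome 8, are the steps committed to sterols: squalene synthase and the oxygen-dependent squalene epoxidase. FDFT1 read 2090, 1720 and 1960 CPM with vehicle, 1510, 1410 and 1470 CPM at 25 µM and 1000, 1400 and 947 CPM at 50 µM. SQLE read 713, 833 and 764 CPM with vehicle, 659, 742 and 696 CPM at 25 µM and 432, 442 and 469 CPM at 50 µM. For SQLE the vehicle and 25 µM libraries overlapped and the 50 µM libraries lay below both. Each gene had a log2 fold change of -0.78 at 50 µM, with an SE of 0.16 for FDFT1 (adjusted p = 0.00179) and 0.14 for SQLE (adjusted p = 0.000459, edgeR).

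**Figure D2:**
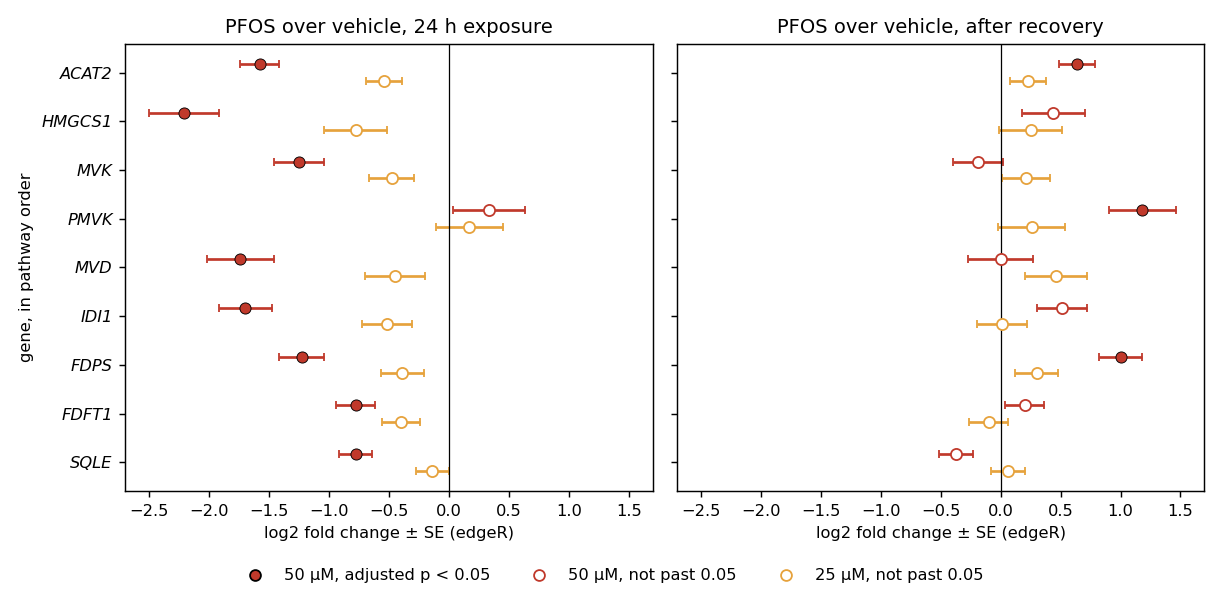
Log2 fold change over vehicle ± SE (horizontal axis) of the 9 genes in pathway order, at 24 h on the left and after recovery on the right, with 50 µM in red and 25 µM in orange. Filled points have an adjusted p under 0.05; 8 red points are filled left of 0 at 24 h, and 3 are filled right of 0 after recovery.

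At 25 µM for 24 h most of these genes had lower values that did not pass the threshold. Of the 9, 0 were called and 8 had a negative log2 fold change, with a median of -0.45. Over all genes, 1.24% were called in either direction. At an unadjusted p under 0.05, 6 of the 9 passed, as did 8.8% of all genes, and DESeq2 called 1. In 7 genes, all but PMVK and SQLE, the 3 libraries at 25 µM lay below the 3 with vehicle, which 11.5% of all genes did. The values ran from -0.78 ± 0.26 for HMGCS1 (adjusted p = 0.215) and -0.54 ± 0.15 for ACAT2 (adjusted p = 0.0969) to 0.17 ± 0.28 for PMVK (adjusted p = 0.941, edgeR). The result depended on which libraries set the spread. Fitted on the 6 libraries of this comparison alone, the same 7 genes were called lower, with values such as -0.76 ± 0.13 for HMGCS1. Over all genes that fit called 182 lower and 234 higher, against 45 and 77 in the fit to all 18 libraries.

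Set against 25 µM directly, 50 µM PFOS at 24 h gave lower levels for 7 of the 9 genes, where 3.62% of all genes were called lower. HMGCS1 (-1.43 ± 0.29), MVD (-1.29 ± 0.28), IDI1 (-1.18 ± 0.22) and ACAT2 (-1.03 ± 0.15) differed most on the log2 scale. FDFT1 (-0.39 ± 0.16, adjusted p = 0.163) and PMVK (0.17 ± 0.29, adjusted p = 0.799, edgeR) did not pass. The MVK call (-0.77 ± 0.21, adjusted p = 0.0266) was lost without any 1 of the 6 libraries of these groups, with values from -0.67 to -0.85.

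After recovery edgeR no longer called the falls seen at 50 µM, though SQLE kept a negative log2 fold change (-0.37 ± 0.14, adjusted p = 0.0538). At 50 µM, 3 of the 9 genes rose over vehicle by edgeR (PMVK, FDPS and ACAT2), and the median log2 fold change was 0.44, against -0.05 over all genes. EdgeR called 0 lower, and DESeq2 called 1 lower, SQLE (-0.37, adjusted p = 0.0339). Over all genes, 17.7% were called higher and 10.7% lower, and in 17.2% all 3 libraries lay above the 3 with vehicle, as they did in the same 3 genes. With upper-quartile scaling the median of all genes moved to -0.17 and all calls split into 1498 higher and 1628 lower, against 1743 higher and 1057 lower as first scaled. The 9 genes then split into 3 higher and 1 lower, SQLE being the lower one (-0.48). At 25 µM, 0 of 9 genes were called by edgeR or DESeq2, 0 had an unadjusted p under 0.05 (7.04% of all genes did), and the median was 0.23, where 0% of all genes were called. FDPS and ACAT2 lay above vehicle in all 3 libraries at 25 µM, as 6.89% of all genes did.

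The share of counts held by the 9 genes after recovery was 0.395, 0.445 and 0.411% with vehicle, 0.466, 0.445 and 0.454% at 25 µM and 0.447, 0.577 and 0.527% at 50 µM, with the lowest 50 µM library just above the highest with vehicle. FDPS read 630, 742 and 628 CPM with vehicle after recovery, 813, 826 and 817 CPM at 25 µM and 832, 1760 and 1390 CPM at 50 µM. Its groups did not overlap, and the log2 fold change was 1.00 ± 0.18 at 50 µM (adjusted p = 0.000412) and 0.30 ± 0.18 at 25 µM (adjusted p = 0.792, edgeR). ACAT2 read 431, 465 and 465 CPM with vehicle, 530, 527 and 541 CPM at 25 µM and 514, 900 and 703 CPM at 50 µM. Both PFOS groups lay above vehicle and overlapped with each other. The ACAT2 log2 fold change at 50 µM was 0.64 ± 0.15 (adjusted p = 0.00325), and it lost its call when only the 6 libraries of the comparison were fitted (0.68 ± 0.23, adjusted p = 0.105, edgeR).

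PMVK, which had not passed at 24 h, read 20.7, 19.4 and 14.6 CPM with vehicle after recovery, 10.1, 23.4 and 27 CPM at 25 µM and 34.9, 46.5 and 41.7 CPM at 50 µM. Only the 50 µM libraries stood clear of the rest. The log2 fold change of 1.18 ± 0.28 (adjusted p = 0.00336) rests on 30, 51 and 30 counts at 50 µM and 27, 74 and 32 with vehicle. With all libraries thinned to 1 depth the value was 0.72 ± 0.47 (adjusted p = 0.279, edgeR).

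HMGCS1, IDI1 and FDFT1 had positive values at 50 µM after recovery that did not pass. HMGCS1 read 177, 83.9 and 145 CPM with vehicle, 174, 159 and 146 CPM at 25 µM and 110, 233 and 197 CPM at 50 µM (log2 fold change at 50 µM 0.44 ± 0.26, adjusted p = 0.211, edgeR). IDI1 read 214, 304 and 315 CPM with vehicle, 322, 256 and 269 CPM at 25 µM and 258, 556 and 374 CPM at 50 µM (0.51 ± 0.21, adjusted p = 0.0699, edgeR). In both genes all groups overlapped. FDFT1 averaged 1870 ± 367 CPM with vehicle, 1750 ± 135 CPM at 25 µM and 2150 ± 309 CPM at 50 µM (SD, n = 3 each).

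MVK (-0.19 ± 0.21, adjusted p = 0.517) and MVD (0.00 ± 0.27, adjusted p = 0.992, edgeR) did not pass at 50 µM. MVK read 95.7, 88.3 and 86 CPM with vehicle, 109, 117 and 83.2 CPM at 25 µM and 87.2, 48.3 and 104 CPM at 50 µM. MVD read 116, 92.5 and 85.1 CPM with vehicle, 116, 165 and 111 CPM at 25 µM and 124, 42.8 and 131 CPM at 50 µM. In each, the second 50 µM library was far below the other two. SQLE read 555, 567 and 722 CPM with vehicle, 630, 650 and 642 CPM at 25 µM and 556, 385 and 485 CPM at 50 µM, and its log2 fold change of -0.37 ± 0.14 lay just outside the threshold by edgeR (adjusted p = 0.0538) and inside it by DESeq2 (adjusted p = 0.0339).

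The second 50 µM recovery library, which had the highest ribosomal share, was the highest of the 3 for 6 genes (ACAT2, HMGCS1, PMVK, IDI1, FDPS and FDFT1) and the lowest for the other 3 (MVK, MVD and SQLE). The spread within the group reached 3.05-fold for MVD and 2.12-fold for FDPS. Without that library FDPS (0.73 ± 0.15), PMVK (1.07 ± 0.31) and ACAT2 (0.42 ± 0.13) were still called. Without the first library 6 genes were called, HMGCS1 (0.70 ± 0.23) and IDI1 (0.74 ± 0.18) being higher and SQLE (-0.51 ± 0.15) lower in addition. Over 9138 genes, the log2 fold change at 50 µM after recovery had a Spearman correlation of -0.30 with the genomic span of the gene. It was -0.26 at 25 µM after recovery, which shares its vehicle libraries, and -0.17 at 50 µM for 24 h, all descriptions across genes that are not independent.

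**Figure D3:**
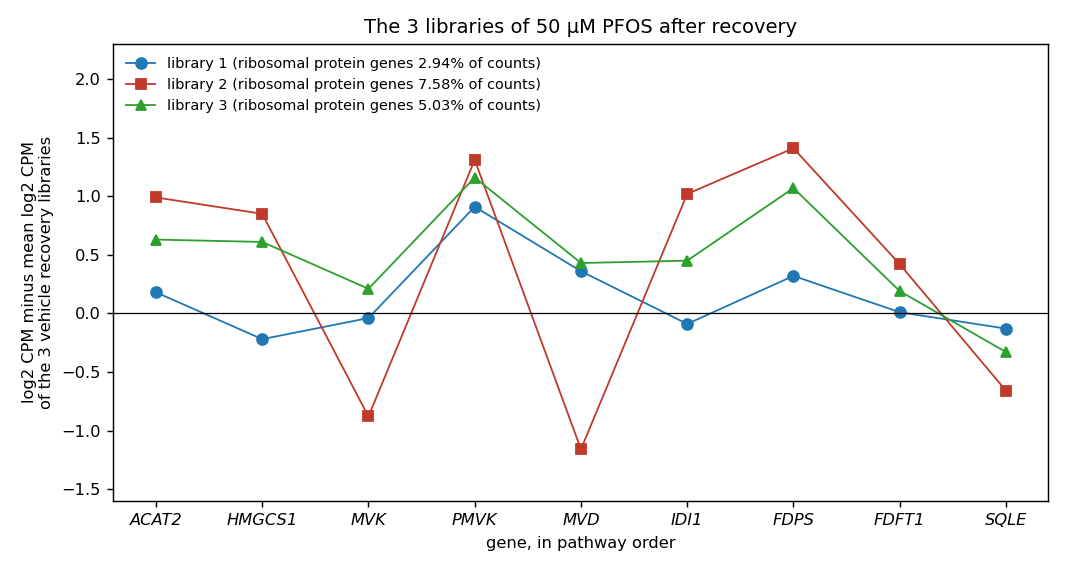
Log2 CPM of each 50 µM recovery library minus the mean of the 3 vehicle recovery libraries (vertical axis), for the 9 genes in pathway order. Lines join the genes of 1 library; the second library, with 7.58% of counts in ribosomal protein genes, lies highest for 6 genes and lowest for MVK, MVD and SQLE.

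The difference between the 50 µM effect after recovery and the 50 µM effect at 24 h was tested in the same model. It was called, and positive, for 7 of the 9 genes, where 11.6% of all genes were called higher. HMGCS1 had the largest difference (2.65 ± 0.38, adjusted p = 0.000164), followed by FDPS and ACAT2 at 2.22 each and IDI1 at 2.21. PMVK (0.85 ± 0.41, adjusted p = 0.149) and SQLE (0.41 ± 0.20, adjusted p = 0.155, edgeR) did not pass. The difference of the 25 µM effects was positive for 9 of 9 genes, with a median of 0.69, and edgeR and DESeq2 each called 0, where 0.0203% of all genes were called. At an unadjusted p under 0.05, 5 of the 9 passed, against 4.65% of all genes.

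Directly after recovery, 50 µM differed from 25 µM in 3 genes, PMVK (0.92 ± 0.29) and FDPS (0.70 ± 0.18) being higher and SQLE (-0.43 ± 0.14) lower, where 14.7% of all genes were called higher and 7.38% lower. No gene was called without the second 50 µM library or with only the 6 libraries of the comparison, and 5 were called without the first. Without the third 50 µM library, or without the first or the second 25 µM library, 1 was called. Vehicle cells after recovery and at 24 h differed in 0 of the 9 genes by edgeR and DESeq2, where 0.975% of all genes were called. At an unadjusted p under 0.05, 4 of the 9 passed, as did 13.2% of all genes. Both vehicle groups enter the differences of effects given above. Of the 9 genes, 7 had a negative log2 fold change, with a median of -0.30, against 0.01 over all genes. In 3 genes (ACAT2, MVK and MVD) every library after recovery lay below those at 24 h, as in 9.54% of all genes. The lowest value was that of MVD (-0.76 ± 0.26, adjusted p = 0.185, edgeR), which averaged 97.8 ± 15.9 CPM after recovery and 163 ± 25.5 CPM at 24 h (SD, n = 3 each).

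The genes varied together to different degrees. Over all 18 libraries, the log2 level of ACAT2 had a Pearson r of 0.967 with the mean of the other 8 genes, against 0.351 for SQLE and 0.058 for PMVK. Over the 15 libraries without 50 µM recovery these were 0.989, 0.820 and -0.294. MVK and MVD had an r of 0.966 with each other. By the same measure, the 8 other genes most like the mean of the 9 were TUBA1A (0.974), PLK2 (0.955), SHMT1 (0.954), PRSS23 (0.946), TPM1 (0.938), UNG (0.932), PRPS1 (0.924) and FGF1 (0.920). These values describe libraries that share their treatment groups.

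Genes on either side of the pathway were counted from lists. At 50 µM for 24 h, 12 of 12 tested genes from lanosterol to cholesterol fell, against 9.59% of all genes, with a median log2 fold change of -1.06. Leaving out 1 library left 10 or 11 of the 12 called lower. The largest falls were those of TM7SF2, a sterol reductase (-2.14 ± 0.27), and CYP51A1, the lanosterol demethylase (-1.54 ± 0.14). Of 4 genes that supply acetyl-CoA, 2 fell: ACSS2, the cytosolic acetyl-CoA synthetase (-2.10 ± 0.20), and ACLY, the citrate lyase (-1.04 ± 0.27). ACLY lost its call without the second 50 µM library, which left 1 of 4.

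Of 13 tested genes of sterol sensing and uptake, 2 fell and 1 rose at 50 µM for 24 h, where 9.59% of all genes were called lower and 9.18% higher. The falls were those of STARD4, a sterol carrier (-1.71 ± 0.24), and INSIG1, which retains the SREBP escort complex in the endoplasmic reticulum (-1.70 ± 0.17). NPC1, the lysosomal cholesterol exporter, rose (1.04 ± 0.18). The falls numbered 4 when only the libraries of this comparison were fitted, and likewise 4 when all libraries were fitted without a filter on low counts. Of 3 tested genes on the list for sterol export and its nuclear receptors, 1 rose: ABCA1, the only transporter tested on that list. ABCA1 averaged 11.9 ± 2.16 CPM with vehicle, 25.9 ± 4.4 CPM at 25 µM and 56.4 ± 8.62 CPM at 50 µM (SD, n = 3 each). Its log2 fold change at 50 µM was 2.20 ± 0.26. With vehicle after recovery ABCA1 averaged 28.1 ± 3.7 CPM (SD, n = 3), above its vehicle level at 24 h. Of 11 genes of the isoprenoid branches, edgeR and DESeq2 each called 0. At an unadjusted p under 0.05, 3 of the 11 passed, as did 31.7% of all genes. With only the libraries of this comparison 1 of the 11 was called higher. The count was 0 with any 1 library left out and ranged from 0 to 2 over the other alternatives.

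The list counts at 50 µM after recovery stand against 17.7% of all genes called higher and 10.7% lower. Of the 12 genes from lanosterol to cholesterol, 3 rose, led by C14orf1, the older symbol of ERG28 (1.15 ± 0.18), and EBP, a sterol isomerase (1.06 ± 0.19). Without the first 50 µM library 4 were called higher and 3 lower, without a filter 3 higher and 3 lower, and without the second 50 µM, the first vehicle or the third vehicle library 2 higher. Upper-quartile scaling gave 2 higher and 1 lower, and thinned counts and a fit to the libraries of the comparison alone gave 2 higher each. Of the sensing and uptake genes, NPC2, which hands cholesterol to NPC1, rose (1.65 ± 0.27) and 7 fell. The falls were led by SCAP, the SREBP escort protein (-1.27 ± 0.41), and SREBF1 (-1.22 ± 0.38). At 50 µM SCAP had 28, 4 and 12 counts, its libraries overlapping with vehicle, and SREBF1 had 21, 8 and 14. The 8 calls of this list became 2 without the second 50 µM library and 5 without the third. They became 3 without the first vehicle library, 5 without the third vehicle library and 1 with only the libraries of the comparison. In the isoprenoid branches GGPS1, which makes geranylgeranyl diphosphate (1.12 ± 0.27), and RABGGTB, a Rab prenylation subunit (0.95 ± 0.27), rose. These 2 of 11 are a share near that of all genes called higher. Without the second 50 µM library, or with only the libraries of the comparison, 0 of 11 were called, with thinned counts 1 was, and without the first 50 µM library 4 were. Of the acetyl-CoA genes and the export and receptor genes, edgeR called 0 each. At an unadjusted p under 0.05, 2 and 0 of them passed, where 39.9% of all genes did. DESeq2 called 1 and 0 in these lists.

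**Figure D4:**
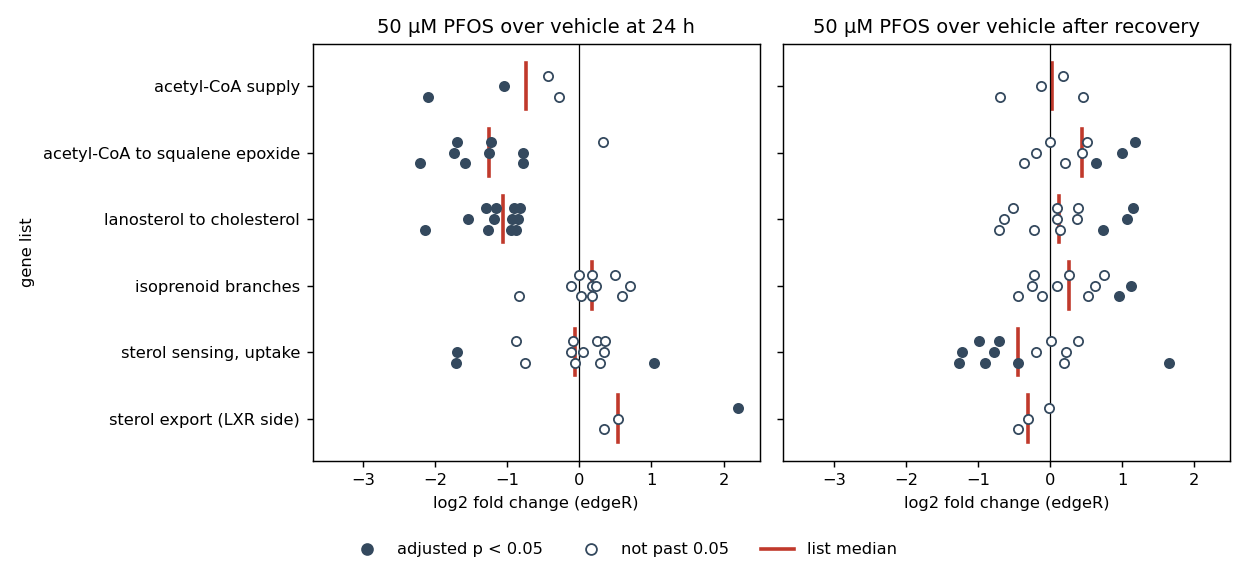
Log2 fold change of 50 µM PFOS over vehicle (horizontal axis) for every tested gene of 6 lists, at 24 h on the left and after recovery on the right. Filled points have an adjusted p under 0.05 and red bars are list medians; at 24 h the medians of the 9 genes (-1.25) and of the lanosterol steps (-1.06) lie left of 0, and after recovery they are 0.44 and 0.12.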

How the data were processed

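The deposited values are raw counts by gene symbol in a single table, without normalization, per the file headers. Poly(A) RNA from TRIzol extracts was made into Smart-seq2 libraries, per the labels' protocols. Trimmomatic, STAR, DESeq2 and MACS2 and the builds GRCh38 and hg38 are named per the submitters' processing notes; the counter, its annotation, its strand setting and all versions were not given in the sources used here. The 18 CUT&Tag samples were not analysed here, and 0 columns were left unmatched.

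From the deposited counts, edgeR 4.0.16 in R 4.3.3 kept 9847 genes (filterByExpr, minimum count 10, 99.2% of counts), scaled libraries by TMM and fitted 1 mean per group to all 18 libraries with a quasi-likelihood model. Two-sided p-values were corrected over the 9847 genes by Benjamini-Hochberg, and the threshold was 0.05. The SE is the absolute log2 fold change divided by the square root of the F statistic. CPM values use TMM-scaled library sizes and compare 1 gene across libraries. Alternatives were other scalings (RLE, upper quartile), no filter, a replicate block, only the libraries of a comparison, thinned counts, DESeq2 1.42.0 and leaving out each library; the fits were tested on simulated data. The labels call replicates biological without saying how cultures were kept apart, so the p-values reflect only how these libraries varied, which may be technical in part. Reads carry no molecular identifiers, so counts are not independent molecules.

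All 9 genes are described. Other genes are up to 2 called genes per direction with the largest changes in each list, and the 8 genes most like the mean of the 9. Some genes of the pathway and its regulation are not reported here, and the lists are counted without them. The genes and lists were chosen with earlier results of these data known. Positions and promoter windows are from RefSeq on GRCh38.p14.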

Additional observations from a re-analysis of the deposited data

Results flagged for a closer look

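The effect of 50 µM PFOS over vehicle differed between recovery and 24 h by a test of the difference itself (edgeR, adjusted p under 0.05) in 7 of the 9 genes. The differences, recovery minus 24 h on the log2 scale, were 2.65 for HMGCS1, 2.22 for ACAT2, 2.22 for FDPS, 2.21 for IDI1, 1.74 for MVD, 1.06 for MVK and 0.98 for FDFT1. The MVK difference lost its call without the third 50 µM recovery library (0.83, adjusted p = 0.0569) and without the first 50 µM library at 24 h (0.95, adjusted p = 0.0503, edgeR). SQLE gained one without the second 50 µM recovery library (0.54, adjusted p = 0.0359, edgeR).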

How the results depend on the processing

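At 50 µM for 24 h, 8 genes were called lower under every alternative run. At 25 µM for 24 h, where edgeR called 0, 1 gene was called with upper-quartile scaling, 1 without a filter and 1 by DESeq2. With only the libraries of the comparison 7 were called. In a fit without the 50 µM recovery group, an alternative chosen after seeing the data, 5 were called. Over all genes these last fits gave 416 and 285 calls, against 122 as first fitted. At 50 µM after recovery, leaving out 1 library gave 3 to 6 genes and the other alternatives gave 2 to 4. Between 50 and 25 µM after recovery the count was 0 with only those libraries and 0 to 5 when 1 was left out. For the difference of the 25 µM effects it was 1 with only those libraries and 3 without the 50 µM recovery group. Over all genes these fits gave 35 and 48 calls. For vehicle after recovery against 24 h the count was 1 without a filter, 1 with only those libraries and 3 without the 50 µM recovery group. Over all genes these fits gave 224, 128 and 433 calls. The SE of HMGCS1 at 25 µM for 24 h was 0.26 in the fit to all libraries and 0.19 without that group.

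Of the values for single genes, 25 changed sign, none of them called. MVD at 50 µM after recovery was -0.11 with upper-quartile scaling, -0.04 without a filter and -0.19 with thinned counts, and -0.24 to 0.40 with 1 library left out, the values below 0 being -0.24, -0.23, -0.09 and -0.01. With thinned counts PMVK was -0.12 at 25 µM after recovery and -0.35 for the difference of the 25 µM effects. With 1 library left out, that difference ranged from -0.11 to 0.35 (below 0 at -0.11 and -0.04), PMVK at 25 µM for 24 h from -0.10 to 0.37 and PMVK between 50 and 25 µM at 24 h from -0.03 to 0.43. The same ranges were -0.43 to 0.09 for MVK at 50 µM after recovery, and -0.06 to 0.44 for HMGCS1 between 50 and 25 µM after recovery. At 25 µM after recovery they were -0.21 to 0.09 for FDFT1 and -0.12 to 0.11 for IDI1 (below 0 at -0.12 and -0.09). In vehicle, recovery against 24 h, they were -0.45 to 0.04 for HMGCS1 and -0.21 to 0.07 for FDFT1 (above 0 at 0.01, 0.04 and 0.07). The cause was not tested.

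In no comparison did all 3 same-numbered pairs deviate together (the lowest correlation of a comparison ranged from -0.338 to -0.0428), so the numbers were not treated as pairs. At 50 µM against vehicle after recovery the first and second pairs had correlations of 0.394 and 0.249 and the third -0.157. With the replicate number as a block, the counts of called genes stayed at 8 and 0 for 50 and 25 µM at 24 h and at 3 and 0 after recovery, and MVD at 50 µM after recovery was -0.02. Over all genes the block gave 54 calls between the vehicle groups, against 96. With only the libraries of a comparison, all-gene calls were 864 against 2800 at 50 µM after recovery, 0 against 2172 between 50 and 25 µM after recovery, 2860 against 1848 at 50 µM for 24 h and 416 against 122 at 25 µM for 24 h. Depth limits PMVK most, with 6 to 105 counts per library.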
